A study of Mus musculus with 9 samples.

Results

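TRIM proteins are a large family of mostly RING-type ubiquitin ligases, named for their tripartite motif of a RING finger, B-box domains and a coiled coil. The end of the protein that follows this motif differs between members and largely decides what each binds, and the most common ending is a SPRY domain. Many SPRY members are induced by interferon and act against viruses or tune the signalling that detects viral RNA and DNA, whereas others repress transcription, bind microtubules or work in muscle. The members were taken as the genes whose symbol is Trim followed by a number and at most 1 letter. This rule gave 58 of the 19937 genes measured, each by 1 probe set, and all 58 were found in the RefSeq gene table.

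The genes were measured in MC3T3-E1 Subclone 4, a mouse preosteoblast line derived from calvaria that becomes bone-forming when given ascorbic acid and beta-glycerophosphate. All cells had been infected with a lentivirus and sorted for its green fluorescent protein, and 3 groups of 3 arrays were compared: scramble shRNA at day 0 (Scr day 0, proliferating), scramble shRNA after 9 days of osteogenic culture (Scr day 9) and Runx2 shRNA after the same 9 days (shRunx2 day 9). Runx2 is the transcription factor that directs osteoblast formation. One hairpin sequence against it was used, shRunx2 cells at day 0 are not analysed here, and neither is Runx2 itself. The labels call the arrays of a group biological replicates, and p-values measure the spread among these samples.

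Levels are log2 expression values, so that a difference of 1 is a doubling, and they are compared within a gene and not between genes. Rose, fell, higher and lower are used of genes with an adjusted p under 0.05 in limma, by Benjamini-Hochberg adjustment over all genes. Arrays of a group correlated at 0.998 to 0.999 across genes, and arrays of different groups at no more than 0.997. Of 6 osteoblast markers, Col1a1 and Col1a2 lay at 13.4 to 13.6 in every group, and Alpl, Sp7, Ibsp and Phex rose during the 9 days in Scr cells and were lower with the Runx2 hairpin. None of 11 skeletal muscle markers and none of 5 endothelial markers passed the test with knockdown. The mean level of a member over all arrays ran from 6.77 to 11.57. The SD over 3 arrays had a median of 0.0519 among members on the Scr day 0 arrays, 0.0509 on the Scr day 9 arrays and 0.0525 on the shRunx2 arrays, close to those of all genes (0.0518, 0.0507 and 0.0471). In bulk samples such as these, fewer expressing cells and less RNA per cell cannot be told apart.

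At day 9, Trim30d, Trim30a, Trim12a, Trim34a, Trim21, Trim25 and Trim16 were higher in shRunx2 than in Scr cells, by 1.12- to 1.83-fold, and Trim27, Trim28 and Trim37 were lower, by 1.15- to 1.16-fold. The other 48 members did not pass the test. The 7 that rose were 12.1% of the family, beside 2.73% of all genes called higher in this comparison, and the 3 that rose at least 1.5-fold were 5.17% of it, beside 0.396% of all genes. Those 3 (Trim30d, Trim30a and Trim12a) and Trim34a lie in the same cluster of near copies. Their probe sets can share signal, so these members do not count separately. The 3 that fell were 5.17% of the family, beside 4.66% of all genes, and none fell by 1.5-fold. Without adjustment, 10 members were higher and 5 lower at a p under 0.05. The share of all genes at that threshold was not computed, so these counts cannot be set against it. The median log2 change of the family was 0.01, and that of all genes was -0.0041.

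**Figure D1:**
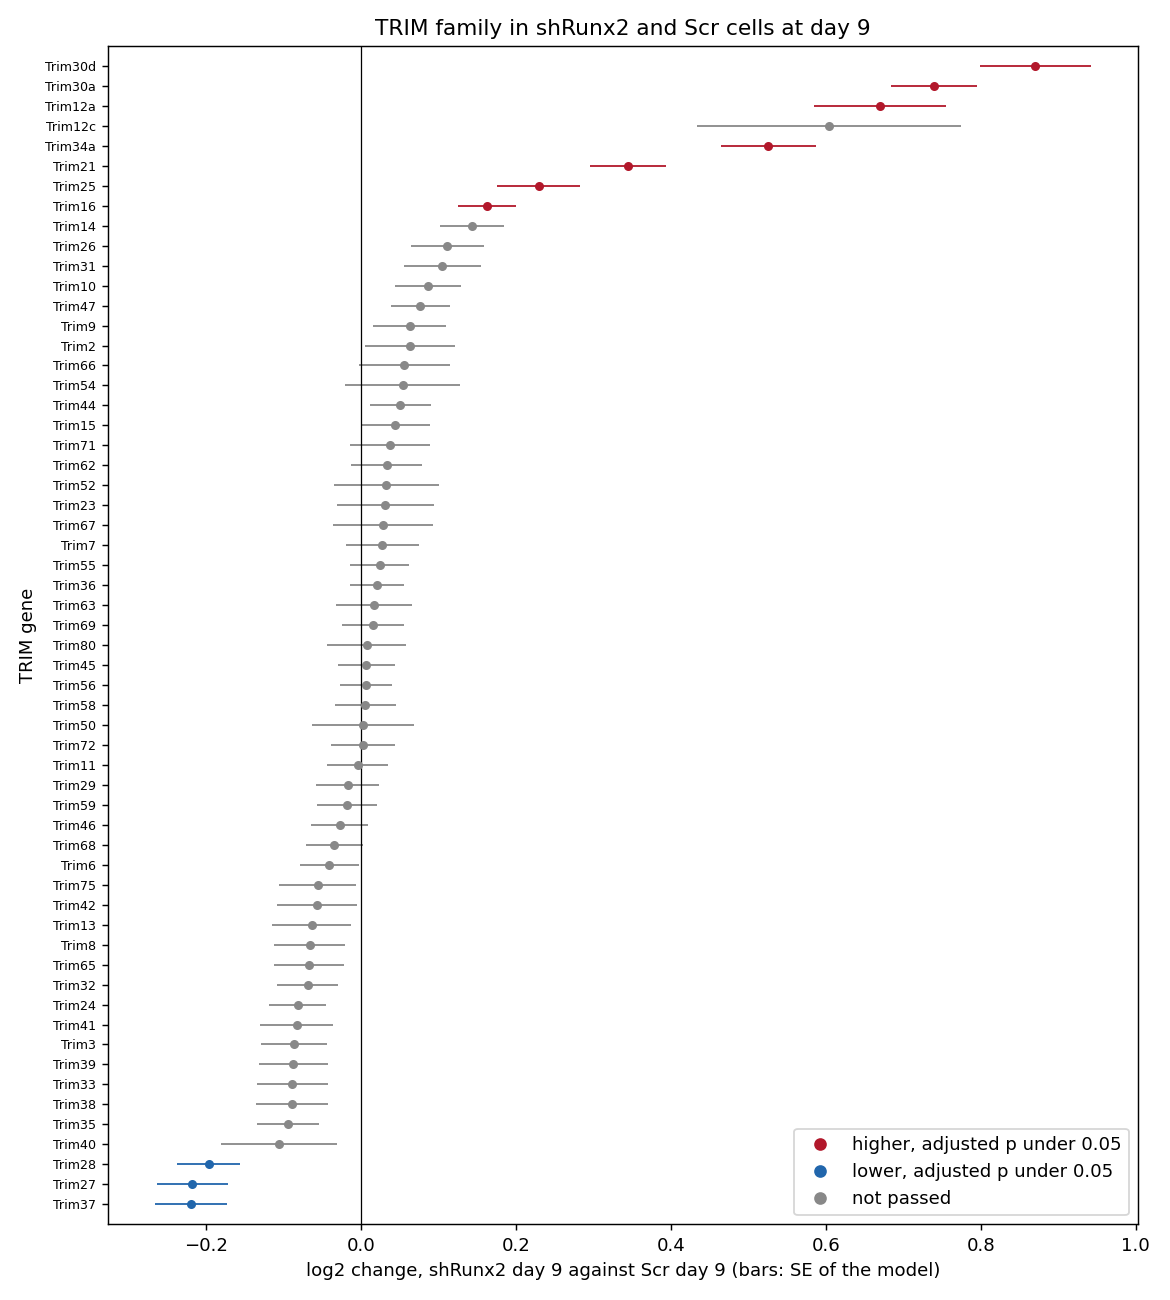
Log2 change of each of the 58 TRIM genes in shRunx2 day 9 against Scr day 9 arrays (horizontal axis; points, change; bars, SE of the model), ordered by size. The 7 genes called higher (red) lie between 0.16 and 0.87, the 3 called lower (blue) lie near -0.2, and Trim12c at 0.60 is the one gene with a change of that size that did not pass the test.

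The stretches of promoter shown here are those of genes that rose, together with Trim12c, because they hold a short motif that few other members had. Interferon regulatory factors (IRFs), which switch on genes of the antiviral response, bind repeats of GAAA. The RefSeq promoter table (build GRCm38.p6, 250 bases before to 50 bases after each start) held 46 of the 58 members, and each promoter was searched on both strands for GAAANNGAA, the main part of an IRF element. Each line reads 5′ to 3′ on the transcribed strand, capitals mark the GAAANNGAA match or its complement, and the element of Trim21 is a pair of overlapping matches.
Trim12a (chr7:104315476-104315524, minus strand): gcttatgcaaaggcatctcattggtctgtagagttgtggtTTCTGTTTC
Trim12c (chr7:104353350-104353417, minus strand): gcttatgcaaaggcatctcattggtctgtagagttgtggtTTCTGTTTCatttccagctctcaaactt
Trim30a, upstream start (chr7:104465194-104465268, minus strand): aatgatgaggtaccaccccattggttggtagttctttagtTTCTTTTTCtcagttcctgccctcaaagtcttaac
Trim30a, downstream start (chr7:104446114-104446162, minus strand): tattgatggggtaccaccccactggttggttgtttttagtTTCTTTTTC
Trim30d (chr7:104507850-104507929, minus strand): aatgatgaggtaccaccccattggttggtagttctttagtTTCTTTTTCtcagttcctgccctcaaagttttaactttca
Trim34a (chr7:104244428-104244476, plus strand): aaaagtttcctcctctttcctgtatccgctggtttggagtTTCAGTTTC
Trim21 (chr7:102565455-102565509, minus strand): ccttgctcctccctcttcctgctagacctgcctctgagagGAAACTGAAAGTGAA
Trim25 (chr11:88999354-88999402, plus strand): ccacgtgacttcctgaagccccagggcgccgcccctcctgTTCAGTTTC

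The match lay 11 bases after the start in Trim12a and Trim34a, 9 bases before it in Trim25, 28 before it in Trim12c and 40 before it in Trim30d. Genes of this locus arose by duplication, and the printed stretches are alike where they are copies. Over the 49 bases printed for Trim12a, Trim12c had the same base at 49. The stretch before the upstream start of Trim30a had 74 of 75 bases in common with Trim30d, and 27 of 49 in common with the stretch at its own other start. Bases were compared position by position without gaps. Both Trim30a stretches share runs of bases that are out of step, so the count of 27 understates how alike they are. In both Trim12 genes the letters tgtggt, the core that Runx factors bind, stand directly before the capitals.

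GAAANNGAA was found in 6 of the 6 genes that rose and have a promoter in the table (all but Trim16) and in 4 of the 40 other members (10%), which were Trim2, Trim7, Trim12c and Trim26. Trim26, which did not pass the test with knockdown, also held a pair of overlapping matches, as Trim21 did. The stretches of Trim2, Trim7 and Trim26 are not printed here. The share among all 27025 genes of the table was 9.76%, and among its 32851 promoters of the same length it was 8.56%. TTCNNNGAA, the element of STAT factors that act downstream of interferon and other cytokines, was in 0 of the 6 and 5 of the 40, beside 9.55% of all genes. The Runx core TGTGGT was in 1 of the 6 (Trim12a) and 10 of the 40 (25%), beside 18.9% of all genes. None of Trim27, Trim28 and Trim37 held GAAANNGAA or TGTGGT in these windows. These are matches of letters and not binding sites, and promoters that are copies of each other do not count separately.

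Trim30d, whose product restricts tick-borne flaviviruses in mouse cells, had the largest change of the family. It measured 9.76, 9.92 and 9.65 on the Scr day 0 arrays, 9.99, 9.99 and 9.90 on the Scr day 9 arrays and 10.73, 10.96 and 10.79 on the shRunx2 arrays. Both Scr groups lay side by side, and every shRunx2 array lay above all 6 Scr arrays. The log2 change with knockdown was 0.87 ± 0.07 (SE, adjusted p = 2.48e-05), or 1.83-fold, and that from day 0 to day 9 in Scr cells was 0.18 ± 0.07 (adjusted p = 0.0836).

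Trim30a, which in mouse macrophages limits signalling from Toll-like receptors to NF-kappaB, stepped up at both comparisons. Its values were 10.56, 10.68 and 10.51 at Scr day 0, 11.47, 11.45 and 11.35 at Scr day 9 and 12.15, 12.24 and 12.09 in shRunx2 cells. The 3 groups did not overlap, and the shRunx2 arrays were the highest. The change with knockdown was 0.74 ± 0.06 (adjusted p = 1.13e-05, 1.67-fold) and the change from day 0 to day 9 was 0.84 ± 0.06 (adjusted p = 3.70e-07, 1.79-fold).

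Trim12a and Trim12c are mouse relatives of human TRIM5, which binds the capsids of incoming retroviruses. Trim12a read 8.80, 8.85 and 8.55 at Scr day 0, 9.68, 9.40 and 9.42 at Scr day 9 and 10.20, 10.15 and 10.17 in shRunx2 cells, again as 3 steps without overlap. The knockdown change was 0.67 ± 0.09 (adjusted p = 0.000556, 1.59-fold) and the differentiation change 0.77 ± 0.09 (adjusted p = 2.64e-05). Trim12c had the same order of groups but the widest spread in the family, with 7.60, 7.06 and 7.31 at Scr day 0, 8.34, 8.09 and 8.04 at Scr day 9 and 9.11, 8.39 and 8.78 in shRunx2 cells (SD 0.36). Its knockdown change of 0.60 ± 0.17 missed the threshold (adjusted p = 0.059), although the lowest shRunx2 array lay above the highest Scr day 9 array, and its differentiation change of 0.84 ± 0.17 passed (adjusted p = 0.00247). Without shRunx2 day 9 replicate 2, its lowest shRunx2 array, the knockdown change passed (0.79, adjusted p = 0.017), and without replicate 1, its highest, the adjusted p was 0.216. With the replicate number as a block in limma, Trim12c passed (adjusted p = 0.00166), but the labels do not say that these numbers pair the arrays. Probe sets of such near copies can take up each other's RNA, so the split of signal between Trim12a and Trim12c, between Trim30a and Trim30d, and between Trim34a and Trim34b, not analysed here, is uncertain.

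The neighbouring Trim34a, whose human counterpart acts together with TRIM5 on retroviral capsids, stood at 8.42, 8.47 and 8.63 on Scr day 0 arrays, at 8.58, 8.63 and 8.70 on Scr day 9 arrays and at 9.25, 9.08 and 9.17 on shRunx2 arrays. The Scr groups overlapped and the shRunx2 group lay above both. The knockdown change was 0.53 ± 0.06 (adjusted p = 0.000307, 1.44-fold) and the differentiation change 0.13 ± 0.06 (adjusted p = 0.143).

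Trim21, the cytosolic antibody receptor that sends antibody-coated virus to the proteasome, was at 10.10, 9.94 and 10.01 at Scr day 0, 10.10, 10.03 and 9.98 at Scr day 9 and 10.33, 10.42 and 10.40 in shRunx2 cells. Only the shRunx2 arrays stood apart, and the knockdown change was 0.34 ± 0.05 (adjusted p = 0.00127, 1.27-fold). Trim25, which attaches ubiquitin in the pathway of the RNA sensor RIG-I (Ddx58), showed the same pattern at a smaller size. Its values were 10.21, 10.10 and 10.14 at Scr day 0, 10.29, 10.17 and 10.08 at Scr day 9 and 10.38, 10.44 and 10.41 in shRunx2 cells. The lowest shRunx2 array lay just above the highest Scr array, and the change was 0.23 ± 0.05 (adjusted p = 0.0251, 1.17-fold). Neither gene passed the test from day 0 to day 9, with changes of 0.02 and 0.04.

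Trim16, a member without a RING finger that takes part in the removal of damaged lysosomes, took another course. It read 9.62, 9.57 and 9.64 at Scr day 0, 9.37, 9.30 and 9.28 at Scr day 9 and 9.48, 9.49 and 9.48 in shRunx2 cells, so that the shRunx2 arrays lay between the Scr groups. It fell by 0.29 ± 0.04 during differentiation (adjusted p = 8.53e-05) and was higher with knockdown by 0.16 ± 0.04 (adjusted p = 0.0234, 1.12-fold). The knockdown calls of Trim16 and Trim25 were lost when each array was centred on its median (adjusted p = 0.0649 and 0.052) and when every probe set was tested (0.0616 and 0.089). Both were also lost without Scr day 9 replicate 2 (adjusted p = 0.1 and 0.0933), without Scr day 9 replicate 3 (0.0774 and 0.0779) and without any 1 of the shRunx2 arrays (0.0623 to 0.073 and 0.063 to 0.0899).

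**Figure D2:**
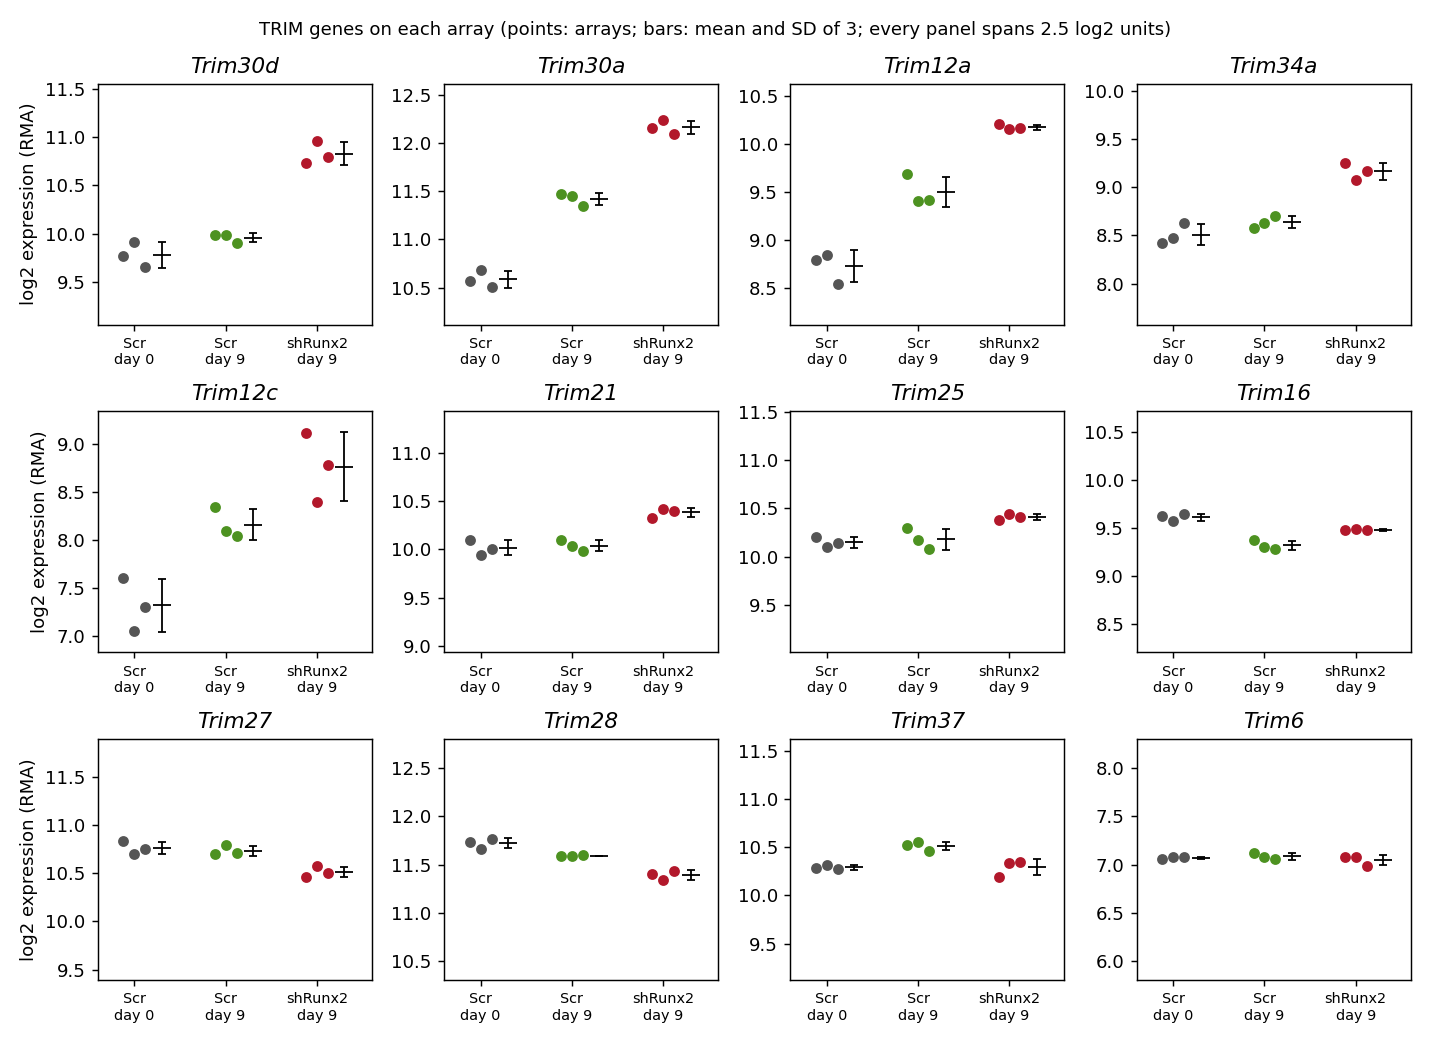
Log2 expression of 12 TRIM genes on each array, in panels of equal height (2.5 log2 units). Points are arrays of Scr day 0 (grey), Scr day 9 (green) and shRunx2 day 9 (red), with the mean and SD of each group in black. Trim30a, Trim12a and Trim12c step up from group to group, Trim30d, Trim34a and Trim21 stand apart in shRunx2 cells, and Trim6 is level at 7.05 to 7.09.

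Among the genes that fell, Trim28 (KAP1) is the corepressor that KRAB zinc finger proteins use to silence genes and endogenous retroviruses. It measured 11.74, 11.67 and 11.77 at Scr day 0, 11.59, 11.59 and 11.60 at Scr day 9 and 11.41, 11.34 and 11.44 in shRunx2 cells, a descent in 2 steps without overlap. The knockdown change was -0.20 ± 0.04 (adjusted p = 0.0128) and the differentiation change -0.13 ± 0.04 (adjusted p = 0.026). Trim27, the ret finger protein, a nuclear repressor, was at 10.83, 10.70 and 10.75, then 10.70, 10.79 and 10.71, and in shRunx2 cells at 10.47, 10.57 and 10.50. Its Scr groups overlapped and its shRunx2 arrays lay below both, with a change of -0.22 ± 0.05 (adjusted p = 0.015).

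Trim37, the only member with a MATH domain and the gene mutated in human Mulibrey nanism, went up and back down. Its values were 10.29, 10.32 and 10.27 at Scr day 0, 10.52, 10.55 and 10.47 at Scr day 9 and 10.19, 10.34 and 10.34 in shRunx2 cells, which overlapped the Scr day 0 arrays. It rose by 0.22 ± 0.05 during differentiation (adjusted p = 0.00301) and was lower with knockdown by the same amount (-0.22 ± 0.05, adjusted p = 0.0149). Against Scr day 0, shRunx2 cells differed by 0.0019 (adjusted p = 0.985). Without Scr day 9 replicate 2 none of these 3 genes passed with knockdown (adjusted p = 0.0772 for Trim27, 0.0513 for Trim28 and 0.0745 for Trim37). Trim28 was also lost without shRunx2 day 9 replicate 2 (0.0531), Trim27 without shRunx2 day 9 replicate 1 (0.0714) or 3 (0.0541), and both Trim27 and Trim37 when every probe set was tested (0.0559).

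Counting only order, the 3 shRunx2 arrays all lay above the 3 Scr day 9 arrays in 11 members (19%, beside 8.34% of all genes) and all below in 6 (10.3%, beside 15.3% of all genes). The 4 further members with all arrays higher were Trim12c, Trim14, Trim31 and Trim44, with changes of 0.60, 0.14, 0.10 and 0.05. Apart from Trim12c, the members that did not pass the test changed by -0.11 to 0.14. They included Trim14, an adaptor of the mitochondrial antiviral pathway that like Trim16 lacks a RING finger (0.14 ± 0.04, adjusted p = 0.0685), Trim26 (0.11 ± 0.05, adjusted p = 0.219), and Trim56, which acts on cytosolic DNA sensing (0.01 ± 0.03, adjusted p = 0.949).

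The genes that rose were compared with the other 51 members on measures that the knockdown values did not enter. On the Scr day 0 arrays their signals, which also depend on the probes and set no order of abundance, ran from 8.51 to 10.58 with a median of 9.78, and 5 of the 7 lay above the median gene (8.80). The other 51 ran from 6.78 to 11.72 with a median of 8.73, and 24 lay above it. By domain, 6 of the 7 belonged to the class of RING, B-box, coiled coil and SPRY, which held 21 of the other 51. By position, 5 of the 7 lay on chromosome 7, where 7 of the other 51 lay.

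All 5 of those on chromosome 7 lie in the stretch from Trim21 to Trim3, here called the Trim5 segment. Within it, the genes from Trim6 to Trim30d form a cluster of antiviral TRIM genes next to olfactory receptor genes, and Trim21 lies outside that cluster. In RefSeq order the segment begins with Trim21, followed at a distance by Trim68, then by Trim6, Trim34a, Trim5, Trim12a, Trim34b, Trim12c, Trim30b, Trim30c, Trim30a and Trim30d, and it ends with Trim3. Of these 13 genes, 9 were measured, 5 were higher with knockdown (beside 2.73% of all genes) and 4 did not pass the test. Beside Trim12c these were Trim6, whose human counterpart assists the kinase IKK-epsilon in interferon signalling (-0.04 ± 0.04, adjusted p = 0.629), Trim68 (-0.03 ± 0.04, adjusted p = 0.691) and Trim3, an NHL-domain ligase of neurons (-0.09 ± 0.04, adjusted p = 0.30). Trim6 is the direct neighbour of Trim34a, and its arrays lay close together in all groups, with means of 7.07 ± 0.01, 7.09 ± 0.03 and 7.05 ± 0.05 (SD, n = 3). Its probe set was dim, at percentile 15.8 of all genes by mean signal, so a change of Trim6 may go unseen.

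The segment also holds 144 other protein-coding genes, 121 of them olfactory receptors. Of these, 129 were measured, 111 of them olfactory receptors, and 0 passed the test with limma. Over all genes, 2.73% were called higher and 4.66% lower in this comparison. Their changes ran from -0.25 to 0.25 with a median of 0.01. At an unadjusted p under 0.05 there were 7 higher and 7 lower, and the share of all genes at that threshold was not computed. The levels of these neighbours were not examined, and a gene that is not expressed in these cells would show no change.

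**Figure D3:**
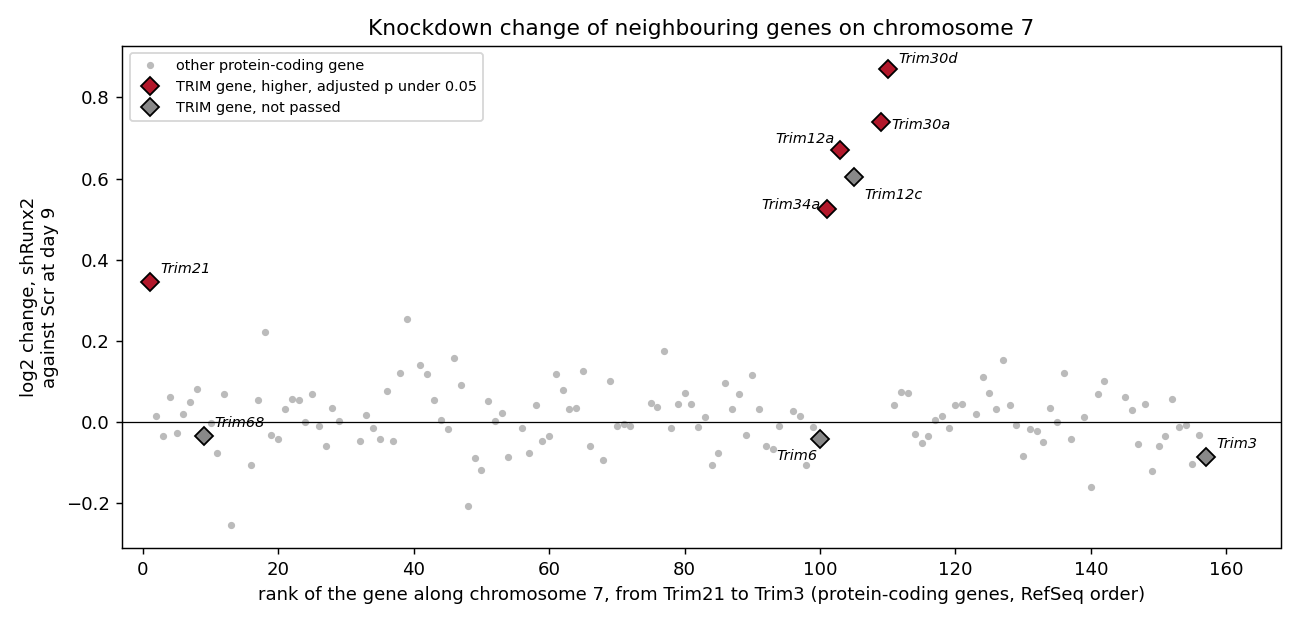
Log2 change in shRunx2 day 9 against Scr day 9 arrays (vertical axis) of protein-coding genes in their order along chromosome 7 from Trim21 to Trim3 (horizontal axis, rank). Trim34a, Trim12a, Trim12c, Trim30a and Trim30d stand at 0.53 to 0.87 and Trim21 at 0.34, above the 129 other genes measured (grey points, -0.25 to 0.25). Trim6, Trim68 and Trim3 lie among those. Red diamonds are TRIM genes called higher, and grey diamonds are TRIM genes that did not pass the test, Trim12c included.

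In the domain classes other than RING, B-box, coiled coil and SPRY, only Trim16, Trim28 and Trim37 passed the test with knockdown. Over all genes 2.73% were called higher and 4.66% lower, so a class of few genes without a call is not set apart by it. None of the 4 NHL members, of the 4 COS-FN3-SPRY members, of the 8 with no further domain or of the 3 muscle RING members (Trim54, Trim55 and Trim63) passed the test, and the last changed by 0.02 to 0.05. Trim23, which carries its own ARF GTPase domain, changed by 0.03, Trim45 with its filamin repeat by 0.01 and Trim8, a regulator of cytokine signalling, by -0.07, and none of them passed. In the class of PHD finger and bromodomain, Trim28 fell and Trim24, Trim33 and Trim66 did not pass (-0.08, -0.09 and 0.06). TRIM genes with other names fell outside the rule for members. Of 6 measured, 1 was higher and 1 lower, beside 2.73% and 4.66% of all genes. Mid1, a microtubule-bound ligase mutated in human Opitz syndrome, was higher by 0.38 ± 0.04 (adjusted p = 7.88e-05). Its paralog Mid2 went from 8.70 ± 0.04 at Scr day 0 to 9.41 ± 0.14 at Scr day 9 and stood at 8.38 ± 0.06 in shRunx2 cells (SD, n = 3), a knockdown change of -1.04 ± 0.06 (adjusted p = 3.04e-06), greater in size than that of any member. Pml, the scaffold of nuclear bodies and also a target of interferon, changed by 0.06 (adjusted p = 0.452).

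From day 0 to day 9 in Scr cells, 7 members rose and 7 fell, which is 12.1% of the family in each direction beside 14.5% of all genes called higher and 17.1% called lower. The 3 that rose at least 1.5-fold (Trim30a, Trim12c and Trim12a) were 5.17% of the family, beside 2.89% of all genes, and none fell by 1.5-fold. With each array centred on its median the split was 6 higher and 12 lower.

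Beside the 3 genes of the Trim5 segment and Trim37, the members that rose were Trim2, Trim24 and Trim7. Trim2, an NHL ligase that acts on neurofilament, had a mean of 9.61 ± 0.10 at Scr day 0, 10.11 ± 0.07 at Scr day 9 and 10.17 ± 0.07 in shRunx2 cells (SD, n = 3). It rose by 0.50 ± 0.06 (adjusted p = 3.85e-05), and its knockdown change was 0.06 ± 0.06 (adjusted p = 0.629). Trim24, a chromatin reader that also marks p53 for degradation, rose by 0.32 ± 0.04 (adjusted p = 3.1e-05), and Trim7, a partner of glycogenin, by 0.17 ± 0.05 (adjusted p = 0.0151). The members that fell most were Trim16 and Trim46, which organises microtubules at the axon initial segment and changed by -0.29 ± 0.04 (adjusted p = 7.98e-05). They were followed by Trim3 (-0.21 ± 0.04, adjusted p = 0.00233), Trim13 of the endoplasmic reticulum membrane (-0.17 ± 0.05, adjusted p = 0.0212), Trim35 (-0.14 ± 0.04, adjusted p = 0.0156), Trim39 (-0.14 ± 0.04, adjusted p = 0.0378) and Trim28. Trim7 no longer passed with Scr day 0 replicate 2 left out (adjusted p = 0.0688) or with centred arrays (0.0579), nor did Trim35 without Scr day 0 replicate 2 (0.0546) or Scr day 9 replicate 3 (0.0638). The calls of Trim13 and Trim39 depended on replicates 1 and 2 of Scr day 0 and 2 and 3 of Scr day 9, that of Trim39 also on shRunx2 day 9 replicate 2, and that of Trim28 on replicates 1 and 3 of Scr day 0 and on each Scr day 9 array. Leaving out 1 of these arrays gave an adjusted p of up to 0.0856 for Trim13 without Scr day 9 replicate 3, 0.0925 for Trim28 without Scr day 0 replicate 3 and 0.134 for Trim39 without Scr day 0 replicate 2.

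**Figure D4:**
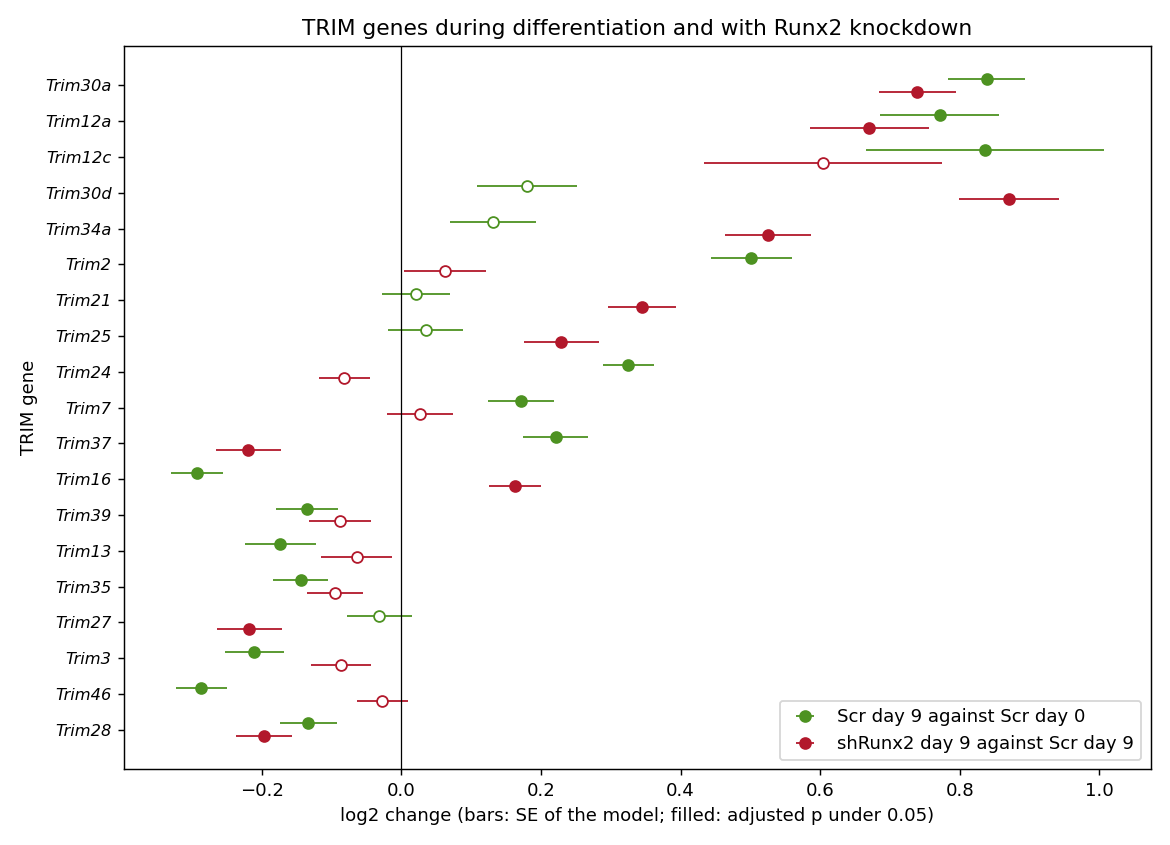
Log2 changes of the TRIM genes called in either comparison (points, change; bars, SE of the model; filled, adjusted p under 0.05), for Scr day 9 against Scr day 0 (green) and shRunx2 day 9 against Scr day 9 (red). Both comparisons share the Scr day 9 arrays. Trim30a and Trim12a are higher in both, Trim30d, Trim34a, Trim21 and Trim25 pass with knockdown and not from day 0 to day 9, and Trim37 and Trim16 point in opposite ways.

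Of the 7 genes that rose with knockdown, 2 (Trim30a and Trim12a) also rose from day 0 to day 9, 4 did not pass that test and 1 (Trim16) fell. These comparisons share the Scr day 9 arrays, so the 2 changes of a gene are not independent, and the difference between them was not tested. Set against Scr day 0, shRunx2 day 9 cells had 13 members higher (22.4% of the family, beside 13.8% of all genes) and 10 lower (17.2%, beside 20.4%). Centred on the array medians, the split was 10 higher and 15 lower. The 5 members higher by at least 1.5-fold were Trim30a (1.58, 2.98-fold), Trim12a (1.44), Trim12c (1.44), Trim30d (1.05) and Trim34a (0.66), all of the Trim5 segment, and they were 8.62% of the family beside 2.91% of all genes. Over the 3 comparisons, 24 members were called at least once and 34 in none. The share of all genes called at least once was not computed, so this count sets the family apart in no way.

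The genes that TRIM ligases work with were followed in lists chosen with earlier results of these data known. Of 18 genes of RNA and DNA sensing and its signalling, 15 were measured, and 5 were higher with knockdown, 1 was lower and 9 did not pass, with a median change of -0.03 (-0.0041 over all genes, of which 2.73% were called higher and 4.66% lower). Those higher were the sensors Dhx58 (1.10 ± 0.07, adjusted p = 3.21e-06), Ifih1 (0.81 ± 0.06, adjusted p = 1.29e-05), Ddx58, on whose pathway Trim25 acts (0.53 ± 0.04, adjusted p = 2.54e-05), and Tlr3 (0.30 ± 0.05), with the interferon-induced factor Irf7 (1.21 ± 0.10, adjusted p = 2.38e-05). Irf3, the factor present before interferon, was lower (-0.19 ± 0.04, adjusted p = 0.0266).

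Of 15 measured genes for E1 and E2 enzymes, which hand ubiquitin to the ligases, 1 rose, 1 fell and 13 did not pass (median -0.0014), beside 2.73% and 4.66% of all genes. Ube2l6, the E2 of the ubiquitin-like modifier ISG15, rose by 0.74 ± 0.06 (adjusted p = 2.03e-05), and Ube2d1, an E2 that many RING ligases use, was lower (-0.38 ± 0.04, adjusted p = 8.99e-05). Of 17 measured ligases and proteases of the interferon response outside the family, 7 rose, 0 fell and 10 did not pass (median 0.05), beside the same 2.73% and 4.66% of all genes. Usp18, the protease that removes ISG15, rose by 1.63 ± 0.12 (adjusted p = 8.86e-06), Herc6, the mouse ISG15 ligase, by 0.78 ± 0.08 (adjusted p = 0.000141), and Parp9 by 0.56 ± 0.05 (adjusted p = 7.79e-05). Dtx3l, the partner ligase of Parp9, rose by 0.39 ± 0.05 and Rnf213 by 0.57 ± 0.07.

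Leukocytes express many of these TRIM genes, so 14 markers of macrophages and leukocytes were measured beside them. With knockdown 2 rose (Lyz2 by 0.42 and Cd74 by 0.53), 1 fell (Fcer1g, -0.27) and 11 did not pass, with a median change of 0.0064. Over all genes, 2.73% were called higher and 4.66% lower. The mean level of the 14 was 7.77 to 7.79 on Scr day 0 arrays, 7.82 to 7.87 on Scr day 9 arrays and 7.88 to 7.93 on shRunx2 arrays. The 11 that did not pass with knockdown, which include Ptprc, Csf1r, Adgre1 and Itgam, changed by -0.06 to 0.14. From day 0 to day 9 in Scr cells 3 rose (Lyz2 by 0.80, Fcer1g by 0.50 and Itgb2 by 0.24), 1 fell (Cd14, -0.32) and 10 did not pass. In that comparison 14.5% of all genes were called higher and 17.1% lower. The part of such cells in the TRIM values was not tested.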

How the data were processed

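RNA of 9 samples was measured on Affymetrix Mouse Gene 1.0 ST arrays. The deposited values are log2 expression values from RMA, by which the authors removed background, matched the distributions of the arrays by quantiles and combined the probes of a probe set by median polish. The submitters' processing notes name RMA and limma without versions. Median polish can leave arrays with exactly equal values, and in 21 of the 58 members (36.2%, beside 31.5% of all genes) at least 2 arrays of a group were equal, so some SDs are 0. Array medians ran from 8.416 to 8.51. Arrays give no read depth, and the precision of a gene follows from its spread and the 3 arrays per group.

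Of 34760 probe sets, 21640 carried 1 gene symbol in the platform annotation, 1321 several and 11799 were unnamed here. For each of 19937 genes the probe set with the highest mean was kept. Two-sided tests used lmFit and eBayes of limma 3.58.1 (R 4.3.3) on all 9 arrays in 1 model of group means, and the script was tested on simulated data. The alternatives were the compared groups alone, the replicate number as a block, each array left out, centring, a filter on dim genes, every probe set, the mean of probe sets, an intensity trend, array weights and a minimum of 1.5-fold. Promoters came from RefSeq (GRCm38.p6). No build is named for the array values, so RefSeq otherwise gave gene names and order alone.

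Members, lists, motifs and tests were chosen with earlier results of these data known. By rule, the text names the members called with knockdown, all measured members of the Trim5 segment, up to 8 called members in each direction from day 0 to day 9, the member with the highest mean in each domain class and up to 4 called genes per list. Others were named after their values were seen. A planned comparison of proteins was not run.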

Additional observations from a re-analysis of the deposited data

Results flagged for a closer look

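Probe sets that carry several gene symbols, or a TRIM pseudogene, stayed out of the counts of members, and 3 of them gave a signal above that of the Scr day 9 arrays. They were tested with limma over all 34760 probe sets. A probe set shared by Trim5, Trim12c and Trim12a was higher in shRunx2 than in Scr cells at day 9 by 0.68 ± 0.11 (SE, adjusted p = 0.0124). One shared by Trim5 and Trim12c was higher by 0.61 ± 0.06 (adjusted p = 0.00156), and its 3 shRunx2 arrays (9.84, 9.87 and 9.83) lay closer together than those of the Trim12c probe set. The pseudogene Trim30e-ps1 was higher by 0.43 ± 0.08 (adjusted p = 0.035), at a low level of 6.62 in Scr and 7.04 in shRunx2 cells. Signal from Trim5 cannot be told apart from that of the Trim12 genes in these probe sets. The probe set of Trim30b and Gm38525 lay at 6.60 at Scr day 9 and 6.61 in shRunx2 cells, a change of 0.02 (adjusted p = 0.895).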

How the results depend on the processing

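Alternatives were computed for the 6 counts of members and for 47 changes of named members, and none of those 47 changes turned its sign. The other members, Mid1, Mid2, the list genes and the markers were not recomputed. Leaving out 1 array at a time, the members higher with knockdown numbered 5 to 7 and those lower 0 to 3, with 0 without Scr day 9 replicate 2. From day 0 to day 9 they numbered 7 to 8 and 3 to 7, the latter 4 without replicate 2 of either group and 3 without Scr day 9 replicate 3, and for shRunx2 against Scr day 0 they numbered 10 to 13 and 9 to 11. A minimum of 1.5-fold left 3 higher and 0 lower with knockdown, 3 and 0 from day 0 to day 9, and 5 and 0 against Scr day 0. Testing every probe set left 1 lower with knockdown and 4 lower from day 0 to day 9, and centring each array on its median gave 12 lower from day 0 to day 9. The shift by centring followed the groups. It was 0.021 to 0.053 on Scr day 0 arrays, -0.0185 to 0.0033 on Scr day 9 arrays and -0.041 to -0.0145 on shRunx2 arrays.

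With knockdown, Trim12a, Trim21, Trim30a, Trim30d and Trim34a passed under every alternative that gave a value. Trim25 passed in 9 of 17 (adjusted p = 0.00259 to 0.0933), Trim16 in 10, Trim27 in 13, and Trim28 and Trim37 in 15 each. Trim12c passed in 4 of 16, with an adjusted p of 0.216 without shRunx2 day 9 replicate 1. Over these 47 changes 730 alternative values kept their side of the threshold, 55 lost the call and 4 gained it.

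Over all genes, arrays with the same replicate number deviated together in some pairs only (correlation -0.11 to 0.29, median 0.08, beside a median of -0.04 for other pairs). Over the family the correlation was -0.02 to 0.56 (median 0.28, beside -0.11 for other pairs). Between Scr day 0 and Scr day 9, same-number pairs were all positive, at 0.08 to 0.29 over all genes and 0.09 to 0.56 over the family. The labels do not say that a number marks a shared batch, and not every pair deviated together, so the numbers were not taken as pairs. With the replicate number as a block, 8 members were higher and 3 lower with knockdown (Trim12c gained, adjusted p = 0.00166), 8 and 7 from day 0 to day 9, and 12 and 10 against Scr day 0. With 3 arrays per group, and dim probe sets such as Trim6 near the lower end of the scale, small changes may go unseen.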
